A study of Homo sapiens with 4 samples.

Results

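The expression of 10 genes was examined in HCT116 cells, an established line from a human colon carcinoma. The cells were exposed to hydrogen peroxide (H2O2), a membrane-permeant oxidant, or left untreated. The genes are the repressors SNAI1 and ZEB1, the mesenchymal marker VIM, and the epithelial genes CDH1, EPCAM, ELF3, CLDN3, CLDN4, OCLN and TJP1. They were chosen by symbol, and all 10 were found among the 16376 genes of the deposited table. Expression was measured by RNA-seq of poly(A)-selected RNA in 2 samples treated with H2O2 and 2 untreated Control samples of the same line, for which no dose or duration of exposure is labelled. The table holds means per group and the authors' test of each gene, and whole read counts of the 4 libraries were recovered from the means. Recovered depth was 7365032 and 6858809 reads for H2O2 and 7309731 and 6892854 reads for Control. No replicate number goes with a recovered library, so the larger of each pair is called the deeper one. Whether replicates were separate cultures is not labelled, and each p-value therefore measures only the spread between these libraries, which may be technical. The columns label the groups A and B only. Reading A as Control follows the table's title, which puts control before H2O2, and every direction given here depends on that reading.

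Epithelial cells are held together by adherens junctions, built on the cadherin encoded by CDH1, and sealed by tight junctions, built from claudins and occludin and tied to the cytoskeleton by scaffolds such as the TJP1 product ZO-1. SNAI1 and ZEB1 encode zinc finger repressors that bind E-box sequences in promoters of epithelial genes, CDH1 among them, and drive the loss of epithelial character called the epithelial-mesenchymal transition. In that transition junction genes typically fall and VIM, the gene of the intermediate filament protein vimentin, rises.

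For the motif that SNAI1 binds, promoters of the 10 genes were searched in RefSeq windows of 300 bases on GRCh38.p14 (250 before and 50 after the start), a later build than the hg19 named for the table. A window was found for 7 of the genes, and SNAI1, CDH1 and EPCAM had none. The E-box CAGGTG, read on both strands and therefore also as CACCTG, occurred in the first listed window of ELF3, OCLN, CLDN3, ZEB1 and TJP1, that is 5 of 7, and in 20.6% of all 27305 first windows. The motif TGANTCA, where N is any base, is looser than the core recognised by AP-1 factors, which has C or G there. It occurred in 1 of the 7, CLDN4, and in 7.76% of all first windows. The 250 bases before the start are shown for CLDN4 and ELF3, which rose with H2O2, and for OCLN, a tight junction gene with an E-box close to its start. Capitals mark TGANTCA in CLDN4 and the E-box in ELF3 and OCLN.
CLDN4: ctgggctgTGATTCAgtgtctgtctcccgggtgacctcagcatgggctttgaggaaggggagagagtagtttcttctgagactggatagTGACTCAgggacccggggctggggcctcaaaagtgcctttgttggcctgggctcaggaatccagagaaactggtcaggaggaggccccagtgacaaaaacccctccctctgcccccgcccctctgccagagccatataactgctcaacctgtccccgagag
ELF3: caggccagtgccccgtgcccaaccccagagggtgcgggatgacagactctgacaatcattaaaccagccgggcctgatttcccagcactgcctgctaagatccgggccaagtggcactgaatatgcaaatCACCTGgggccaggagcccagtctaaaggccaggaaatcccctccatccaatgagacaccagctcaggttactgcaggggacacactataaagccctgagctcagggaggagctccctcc
OCLN: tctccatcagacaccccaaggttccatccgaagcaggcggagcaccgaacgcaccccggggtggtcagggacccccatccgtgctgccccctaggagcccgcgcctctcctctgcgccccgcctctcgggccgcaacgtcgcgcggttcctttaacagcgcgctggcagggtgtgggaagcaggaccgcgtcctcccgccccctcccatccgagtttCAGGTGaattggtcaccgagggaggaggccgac
The CLDN4 sequence is chr7:73830746-73830995 on the plus strand, and its 2 matches begin 242 and 161 bases before the start. The match at 242 is TGATTCA and that at 161 is TGACTCA, and only the latter has the AP-1 core. The ELF3 sequence is chr1:202010337-202010586 on the plus strand, with the match 120 bases before the start. The OCLN sequence is chr5:69492297-69492546 on the plus strand, with the match 33 bases before the start. These matches describe the letters of the windows and say nothing about binding in these cells.

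With H2O2, SNAI1, ELF3 and CLDN4 were higher in the authors' test (adjusted p under 0.05), and no member was lower. CDH1, the adherens junction gene that SNAI1 is known to repress, was at 0.972-fold per the authors' deposited table. EPCAM, CLDN3, VIM, ZEB1, OCLN and TJP1 did not pass. The 3 of 10 higher compare with 2.58% of all listed genes called higher in that test and 4.62% called lower. With no adjustment, 5 of the 10 had p under 0.05 in the authors' test, the 2 more being EPCAM and CLDN3, against 19.6% of all listed genes in either direction. In RNA from whole cultures, more transcript per cell and more cells with the transcript cannot be told apart. limma, run on log2(normalized count + 1) for the 4 recovered libraries, called the same 3 genes higher and none lower, against 1.52% of all genes higher and 2.58% lower, and it too had 5 members at an unadjusted p under 0.05, against 20.2% of all genes. In limma fits with 1 library left out, the members called were 1 without the deeper H2O2 library (against 1.73% of all genes), 2 without the shallower H2O2 library (3.13%), 4 without the deeper Control library (8.52%) and 7 without the shallower Control library (22.2%). The authors' deposited table gives the 10 genes a median log2 fold change of 0.27, against 0.00029 for all listed genes. The 10 genes were proposed with results of these data known, so this count is a description of them.

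**Figure D1:**
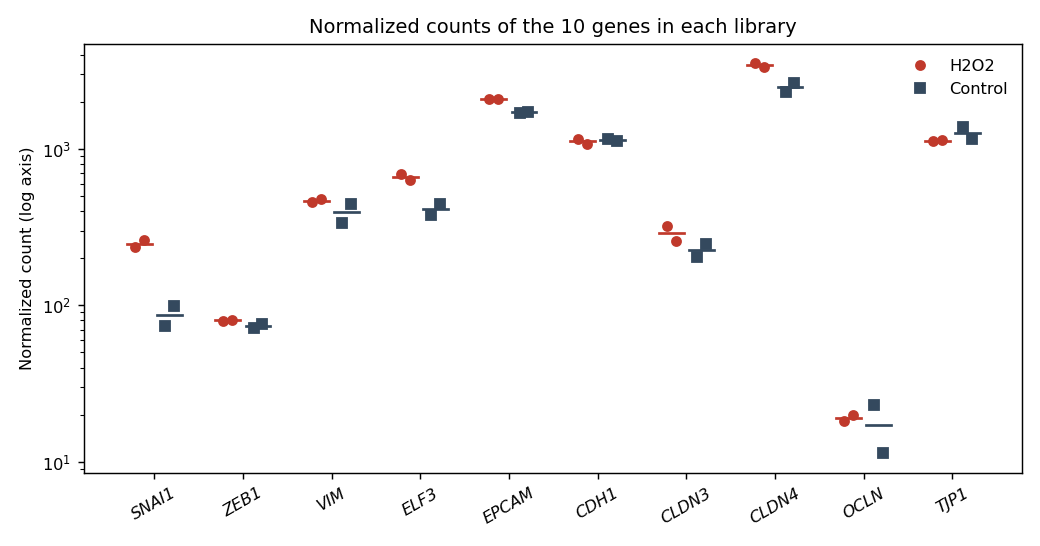
Normalized counts (log axis) of the 10 genes in the H2O2 libraries (red circles) and the Control libraries (dark squares), with a short line at each group's mean. SNAI1 stood at 235 and 260 in the H2O2 libraries, against 73.8 and 98.5 in the Control libraries, while the CDH1 points of the groups overlap.

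SNAI1 was the gene of the 10 that changed most. It had 243 and 250 reads in the H2O2 libraries and 77 and 96 reads in the Control libraries. Both H2O2 libraries were far above both Control libraries, at a mean normalized count of 247 ± 18.0 with H2O2 and 86.2 ± 17.5 in Control (SD, n = 2 each). The rise was 2.87-fold in the authors' deposited table, with an adjusted p of 8.10e-14 there, and SNAI1 ranked 27 of 16376 genes by that test's p. limma gave a log2 fold change of 1.52 ± 0.18 (SE, adjusted p = 1.99e-04), with a 95% interval of 1.15 to 1.90. SNAI1 alone of the 10 kept its limma call whichever of the 4 libraries was left out, at log2 fold changes of 1.32 to 1.73. Set against CDH1 in the same library, which needs no scaling between libraries, there were 202 and 242 SNAI1 reads per 1000 CDH1 reads in the H2O2 libraries and 63.3 and 87.1 in the Control libraries. Reads measure transcripts, and the amount of SNAI1 protein, which is known to be short-lived, was not measured.

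By a rule based on the distance between centred log2(normalized count + 1) profiles over the 4 libraries, the 5 genes of mean at least 50 with the pattern nearest to SNAI1 were ARC, NR4A1, HSPA1B, GADD45B and RP11-1100L3.8. Their distances were 0.089 to 0.25 on the log2 scale. ARC, an immediate early gene first known from neurons, had 785 and 818 reads with H2O2, against 235 and 314 in Control. NR4A1, which encodes an orphan nuclear receptor, had 1196 and 1248 reads with H2O2, against 340 and 429 in Control. In these genes, as in SNAI1, the shallower Control library stood above the deeper one, a trait that the rule itself selects for. HSPA1B is an uncertain value, since it shares sequence with its near-identical neighbour HSPA1A. The likeness is a description over 4 libraries in 2 groups.

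ZEB1 and VIM, the gene of the other repressor and the mesenchymal marker, did not pass. ZEB1 had 82 and 78 reads in the H2O2 libraries and 75 and 74 in the Control libraries. The H2O2 libraries lay just above, and the limma log2 fold change was 0.12, with a 95% interval of -0.30 to 0.53 (adjusted p = 0.780). VIM had 473 and 458 reads with H2O2, against 353 and 435 in Control. Its Control libraries differed from each other by 1.32-fold, which is more than the 1.19-fold between the group means in the authors' deposited table. limma gave VIM a log2 fold change of 0.26, with an interval of -0.03 to 0.56 (adjusted p = 0.305). It was called only in the fit without the shallower Control library (0.46, adjusted p = 0.00199), and stood at 0.063 without the deeper. Both genes have an antisense partner whose exons overlap theirs. The overlap was 4.23% of the exon length of ZEB1. For VIM it was 24.4%, summed with that of a second antisense gene, where shared bases may be counted more than once. Whether counting used strand is not given in the sources used here. ZEB1-AS1 had 124 and 102 reads with H2O2, against 69 and 67 in Control, and rose 1.67-fold in the authors' deposited table (adjusted p = 0.0166; limma, 0.0422). VIM-AS1 had 175 and 129 reads with H2O2, against 117 and 119 in Control, and did not pass (adjusted p = 0.244 in the authors' deposited table). The antisense genes were looked at after the values were seen, and their part in the ZEB1 and VIM reads was not tested.

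ELF3, an ETS family transcription factor of epithelial cells, rose. It had 720 and 609 reads in the H2O2 libraries and 396 and 434 reads in the Control libraries. The groups do not overlap, and the means were 664 ± 43.5 with H2O2 and 413 ± 46.6 in Control as normalized counts (SD, n = 2 each). The authors' deposited table gives 1.61-fold (adjusted p = 6.02e-05), and limma a log2 fold change of 0.69 ± 0.12 (SE, adjusted p = 0.00602). The call was lost without the deeper H2O2 library (0.62, adjusted p = 0.0775). Its exons overlap the antisense gene ELF3-AS1, which was not listed under that symbol. Of the 75-base words of its longest transcript, 7.66% also occur in an overlapping transcript. Summed gene by gene, the overlaps come to 18.5% of its exon length, where shared bases may be counted more than once. Its count is therefore uncertain.

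EPCAM, an adhesion molecule on the surface of epithelial cells, had 2163 and 2004 reads with H2O2, against 1770 and 1687 in Control. As normalized counts it stood at 2088 and 2084 in the H2O2 libraries and 1697 and 1732 in the Control libraries, so the groups were tight and apart. It did not pass over all genes, at 1.22-fold in the authors' deposited table (adjusted p = 0.179) and a limma log2 fold change of 0.28 ± 0.10 (SE, adjusted p = 0.142). It was called in limma when either Control library was left out, at 0.27 without the deeper (adjusted p = 0.0260) and 0.30 without the shallower (0.00451). CDH1 had 1202 and 1031 reads with H2O2, against 1216 and 1102 in Control, and the groups overlap. Its limma log2 fold change was -0.042, with a 95% interval of -0.27 to 0.19 (adjusted p = 0.859).

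Of the tight junction genes, CLDN4 was the one that rose. It had 3645 and 3221 reads in the H2O2 libraries and 2422 and 2559 reads in the Control libraries. Both H2O2 libraries were above both Control libraries, at 3434 ± 119 normalized counts with H2O2 and 2474 ± 216 in Control (SD, n = 2 each). The rise was 1.39-fold in the authors' deposited table (adjusted p = 0.00831), and 0.48 ± 0.11 on the log2 scale in limma (SE, adjusted p = 0.0259). It lost its limma call when either H2O2 library was left out, at 0.44 without the deeper (adjusted p = 0.409) and 0.51 without the shallower (0.196). CLDN3, a claudin whose gene lies on the same chromosome, 7, had 334 and 247 reads with H2O2, against 211 and 240 in Control. As normalized counts the lower H2O2 library stood at 257 and the higher Control library at 246, and CLDN3 did not pass (1.29-fold in the authors' deposited table, adjusted p = 0.136; limma 0.37 ± 0.15 on the log2 scale, SE, adjusted p = 0.200). It was called in limma only without the shallower Control library (0.51, adjusted p = 0.00522), and stood at 0.22 without the deeper Control library and 0.20 without the deeper H2O2 library. CLDN4 had 10.9 and 13.0 reads per CLDN3 read in the H2O2 libraries and 11.5 and 10.7 in the Control libraries, so the ratio of the 2 claudins overlapped between groups.

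OCLN, the gene of occludin, was counted too thinly to say much, with 19 and 19 reads in the H2O2 libraries and 24 and 11 in the Control libraries. The Control libraries lay on both sides of the H2O2 libraries, the 95% interval of the limma log2 fold change ran from -0.59 to 1.04 (adjusted p = 0.782), and 7.50% of its 75-base words also occur in other genes, among them the pseudogene OCLNP1. That interval holds the changes compatible with these reads, and a change outside it could also go uncalled at this depth. TJP1 had 1157 and 1103 reads with H2O2, against 1437 and 1121 in Control. The shallower Control library stood at 1151 normalized counts, next to 1117 and 1147 in the H2O2 libraries, and the deeper one at 1377. TJP1 did not pass (limma log2 fold change -0.15, interval -0.40 to 0.092, adjusted p = 0.474). It was called lower only without the shallower Control library (-0.28, adjusted p = 0.0155), and stood at -0.024 without the deeper one (adjusted p = 0.926).

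**Figure D2:**
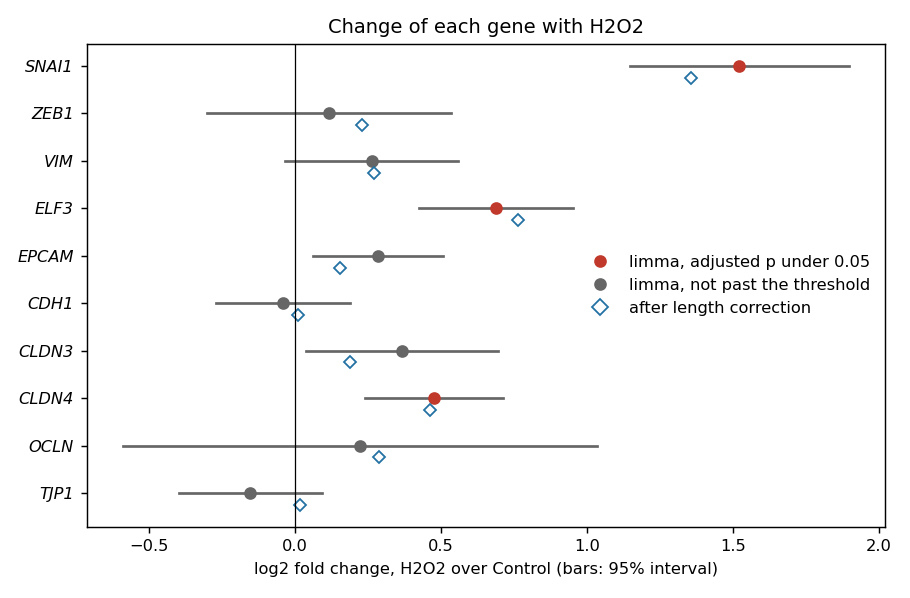
log2 fold change of each gene, H2O2 over Control, in limma (circles, with 95% intervals; red where the adjusted p is under 0.05) and after removing the trend with exon length (open diamonds). SNAI1, ELF3 and CLDN4 are past the threshold at 1.52, 0.69 and 0.48, and the diamonds of EPCAM and CLDN3 fall at 0.15 and 0.19.

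Per kilobase of exon in GENCODE release 29, EPCAM and CLDN4 were the most abundant of the 10 genes and OCLN and ZEB1 the least. EPCAM averaged 828 normalized counts per kilobase with H2O2 and 680 in Control, and CLDN4 730 with H2O2 and 526 in Control. CLDN3 followed at 227 with H2O2 and 176 in Control, and CDH1 at 181 with H2O2 and 186 in Control. SNAI1 stood at 147 with H2O2, above TJP1 (100.5), ELF3 (92.4) and VIM (90.4), and at 51.1 in Control, below TJP1 (112), ELF3 (57.4) and VIM (76.1). ZEB1 had 9.27 normalized counts per kilobase with H2O2 and 8.55 in Control, and OCLN 2.82 with H2O2 and 2.54 in Control. Neighbours in this order were not always apart. With H2O2, the ELF3 libraries (96.7 and 88.1) and the VIM libraries (88.5 and 92.4) overlapped, as did, in Control, those of CLDN3 (159 and 193) and CDH1 (189 and 183) and those of SNAI1 (43.8 and 58.4) and ELF3 (52.8 and 62.0). These lengths join the exons of all isoforms, so the levels are approximate.

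Of the 10 genes, 7 had both H2O2 libraries above both Control libraries, 1 (TJP1) had both below, and CDH1 and OCLN overlapped. Over all listed genes, 26.3% lay wholly above and 25.6% wholly below. Over the 12118 genes of mean at least 50, the median absolute log2 difference was 0.11 between the H2O2 libraries and 0.17 between the Control libraries. The difference between the Control libraries followed exon length. These genes, where a length was found, were put into 4 classes of equal size from short to long. By class, the authors' deposited table gives median log2 fold changes with H2O2 of 0.14, 0.043, -0.048 and -0.16. The median log2 ratio of the shallower over the deeper library was -0.016, 0.0075, 0.016 and 0.044 in the H2O2 pair, and 0.15, 0.057, -0.028 and -0.15 in the Control pair. SNAI1, EPCAM and CLDN3 lie in the shortest class and ZEB1 and TJP1 in the longest. After each library's trend with length was removed, limma called the same 3 members higher, against 1.88% of the 13931 genes with a length: SNAI1 at 1.36 ± 0.16, ELF3 at 0.77 ± 0.12 and CLDN4 at 0.46 ± 0.097 on the log2 scale (SE, adjusted p = 8.05e-05, 0.00130 and 0.0106). EPCAM then stood at 0.15 (adjusted p = 0.405), CLDN3 at 0.19 (0.495) and TJP1 at 0.018 (0.946).

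**Figure D3:**
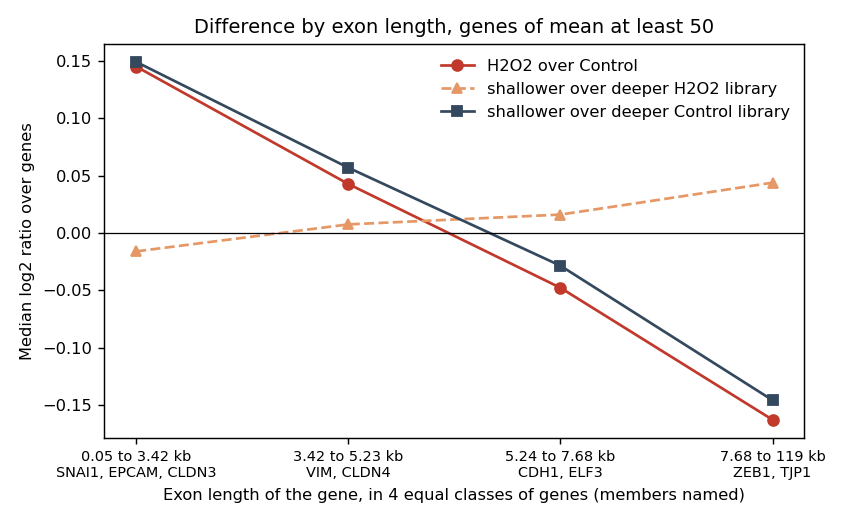
Median log2 ratio over genes of mean at least 50, by class of exon length, for H2O2 over Control (red), for the shallower over the deeper H2O2 library (orange, dashed) and for the shallower over the deeper Control library (dark). The orange line stays between -0.016 and 0.044, while the red and dark lines fall together, to -0.16 and -0.15 in the longest class.

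**Figure D4:**
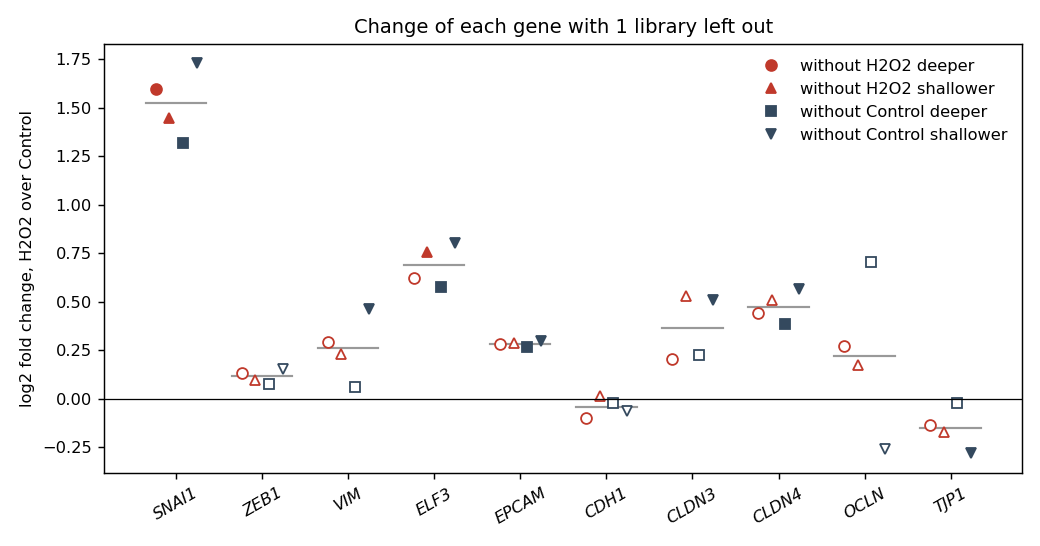
log2 fold change of each gene in limma with 1 library left out (symbols; filled where the adjusted p is under 0.05) and with all 4 libraries (grey line). SNAI1 is filled in all 4 fits, ELF3 in 3, and CLDN4 in the 2 that leave out a Control library.

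Among other genes of the junctions, 3 lists held 4 calls in the authors' test, all lower with H2O2, where 4.62% of all listed genes were called lower. Of 19 measured tight junction genes outside the 10, the authors' deposited table has 2 lower, none higher and 17 short of the threshold (median log2 fold change 0.021). The 2 were MPP5 and MAGI1, scaffolds of the apical junction. MPP5 had 321 and 353 reads with H2O2, against 530 and 423 in Control (log2 fold change -0.48, adjusted p = 0.0180 in the authors' deposited table). MAGI1 had 467 and 467 reads with H2O2, against 717 and 539 in Control (-0.41, adjusted p = 0.0431 in the authors' deposited table). CGNL1, which encodes paracingulin, did not pass at -0.51 in the authors' deposited table (adjusted p = 0.0947). Of 18 adherens junction genes, MLLT4, which encodes afadin, was the 1 called, at -0.40 (adjusted p = 0.0332) in the authors' deposited table, with a list median of 0.037. Of 10 desmosome genes, EVPL, which encodes envoplakin, was the 1 called, at -0.40 (adjusted p = 0.0407) in the authors' deposited table, with a list median of -0.055. AFAP1 at -0.37, PVRL2 at 0.20, PERP at 0.33 and PPL at -0.26 (log2 fold changes, the authors' deposited table) did not pass. MPP5, MAGI1 and MLLT4 lie in the longest of the 4 classes of exon length, where 12% of genes were called lower in the authors' test. EVPL lies in the class before it, where 4.85% were. The 4 genes called lower are long, with 7.51 to 13.7 kilobases of exon. With all 4 libraries, none of these 4 genes passed in limma (adjusted p of 0.0530 to 0.0952), nor after the length correction (0.0752 to 0.311). The limma fit with no correction called no gene of the 3 lists. At an unadjusted p under 0.05 it had 5, 2 and 2 of their 19, 18 and 10 genes, against 20.2% of all genes. The correction moved the limma log2 fold change of EVPL to -0.32, against -0.40 without it, and that of MPP5 to -0.36, against -0.48. It moved MLLT4 to -0.18, against -0.40, and MAGI1 to -0.22, against -0.40. Without the deeper Control library MAGI1 stood at -0.24, MLLT4 at -0.26, MPP5 at -0.36 and EVPL at -0.38. Without the shallower Control library MAGI1 stood at -0.55, MLLT4 at -0.53, MPP5 at -0.59 and EVPL at -0.43.

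Of the 23 measured epithelial identity genes reported here, the authors' deposited table has OVOL1 higher and 22 short of the threshold (median log2 fold change 0.082). In that test 2.58% of all listed genes were called higher. OVOL1, a zinc finger repressor that maintains epithelial fate, had 330 and 284 reads with H2O2, against 189 and 179 in Control. Both H2O2 libraries were well above, and limma gave 0.75 ± 0.14 (SE, adjusted p = 0.00665), a call that was lost without the deeper H2O2 library (0.69, adjusted p = 0.0779). KRT8, a keratin of simple epithelia, did not pass at 1.23-fold in the authors' deposited table (adjusted p = 0.133), and 10.01% of its 75-base words are shared with other genes, mostly pseudogenes. RAB25, an epithelial small GTPase of membrane recycling, had 793 and 730 reads with H2O2, against 647 and 682 in Control, and was at 1.15-fold (adjusted p = 0.394) per the authors' deposited table.

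Of 13 other transcription factors of the epithelial-mesenchymal transition, 6 were measured, and ZEB2, TWIST1, TWIST2, TCF4, PRRX1 and GSC were not among the listed genes. FOXC2 was listed below the mean of 10 that counts as measured. The authors' deposited table has SOX4 lower and 5 short of the threshold (median log2 fold change -0.071), where 4.62% of all listed genes were called lower. SOX4 had 2418 and 2024 reads with H2O2, against 3745 and 2520 in Control (-0.48, adjusted p = 0.00679 in the authors' deposited table), with no call in limma (-0.46, adjusted p = 0.0772). In limma it stood at -0.22 without the deeper Control library and -0.70 without the shallower, where it was called (adjusted p = 6.51e-15). SNAI2, the SNAI1 relative also called Slug, had 31 and 36 reads with H2O2, against 13 and 20 in Control. Both H2O2 libraries were above both Control libraries, but it did not pass at 2.04-fold in the authors' deposited table (adjusted p = 0.0771; limma, 0.0995). FOXC1 did not pass, at -0.13 in the authors' deposited table. None of 23 genes of SNAI1 corepressors and of enzymes that control its protein passed in the authors' deposited table. Nor did any in limma with all 4 libraries and no length correction. At an unadjusted p under 0.05 there were 3 in the authors' test and 4 in limma, against 19.6% and 20.2% of all listed genes. After the length correction limma called 2 of the 23 higher, against 1.88% of all genes with a length. HDAC2 stood at 0.46 (adjusted p = 0.0129), against 0.23 without the correction, and CTBP2 at 0.38 (adjusted p = 0.0353), against 0.22. Both are long, with 15.5 and 10.9 kilobases of exon over all isoforms joined, and lie in the longest class of exon length. HDAC2 encodes a histone deacetylase and CTBP2 a corepressor, and both are named because of these calls. GSK3B and BTRC, a kinase and a ubiquitin ligase subunit that mark SNAI1 protein for degradation, stood at -0.30 and -0.28, and AJUBA, which encodes a SNAI1 corepressor, at -0.34 as log2 fold change (the authors' deposited table, list median -0.044).

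Of the 15 measured mesenchymal genes reported here, the authors' deposited table has COL1A1 lower and 14 short of the threshold (median log2 fold change 0.014). In that test 4.62% of all listed genes were called lower. COL1A1, a collagen chain, had 579 and 526 reads with H2O2, against 780 and 739 in Control (limma -0.44 ± 0.11, SE, adjusted p = 0.0343). The COL1A1 change was about as large with the deeper H2O2 library left out (-0.46, adjusted p = 0.303) or the shallower (-0.43, adjusted p = 0.291), and was -0.30 after the length correction (adjusted p = 0.108), with no call in these 3 fits. S100A4, at a log2 fold change of 0.25, and FN1, the fibronectin gene, at -0.24, did not pass per the authors' deposited table. CDH2, the mesenchymal cadherin gene, was not among the listed genes.

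**Figure D5:**
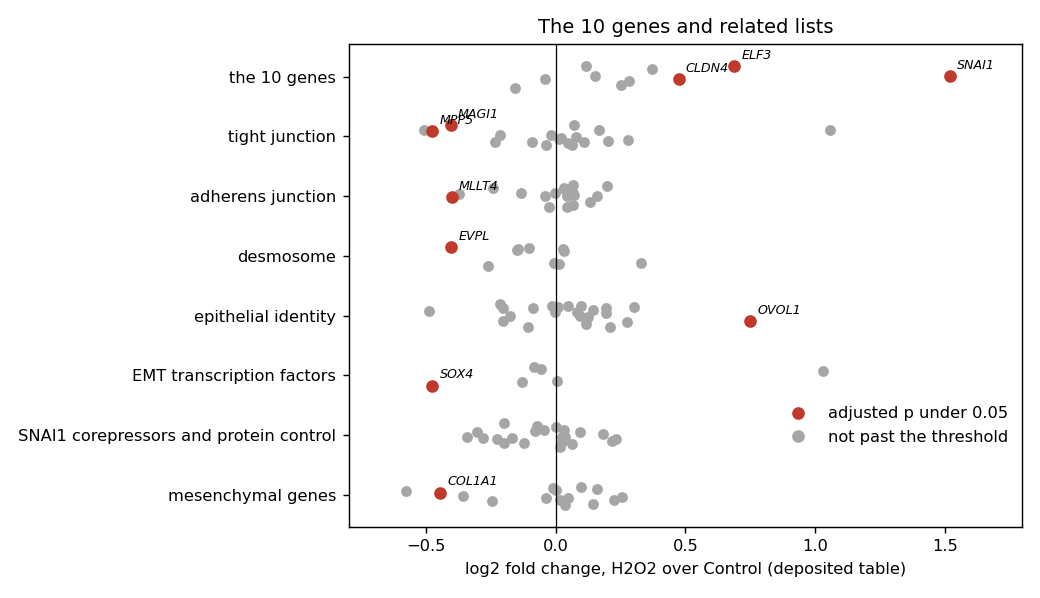
log2 fold change, H2O2 over Control, in the authors' deposited table for the 10 genes and for the measured genes of 7 related lists (1 point per gene, named and red where the adjusted p is under 0.05). The called junction genes MPP5, MAGI1, MLLT4 and EVPL lie between -0.48 and -0.40, and SNAI1 stands at 1.52.

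The colon epithelial identity of the samples was checked on 9 markers, of which 8 were listed and CDH17 was not. EPCAM and CDH1 are among these markers and among the 10 genes, so the check is in part a restatement of their values. The summed normalized counts of the 8 listed markers were 9432 and 9023 in the H2O2 libraries and 7596 and 9026 in the Control libraries. KRT20 was listed at a mean of 9.11, CDX2 stood at -0.22 (log2 fold change, the authors' deposited table), and no measured marker of the 7 was called. Of fibroblast markers 3 of 8 were listed, with summed counts of 754 to 813 in the H2O2 libraries and 933 to 1017 in the Control libraries, and DCN, LUM, PDGFRA, THY1 and COL1A2 were not. Of the 3, COL1A1 was called lower, as given above, and COL3A1 at 0.095 and PDGFRB at -0.39 (log2 fold changes, the authors' deposited table) did not pass. Of endothelial markers 1 of 5 (KDR) and of blood cell markers 2 of 6 (CD14 and CD68) were listed. The blood cell sums were 22.9 to 27.0 in the H2O2 libraries and 8.63 to 17.5 in the Control libraries, and PTPRC and CD3E were not among the listed genes. CD14, with 19 and 10 reads with H2O2, against 5 and 3 in Control, was called higher in the authors' deposited table (adjusted p = 0.0270) and not in limma (adjusted p = 0.0794). Its mean of 9.15 lies below the 10 at which a list gene counts as measured. The part of these markers in the results was not tested.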

How the data were processed

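RNA-seq of poly(A)-selected RNA was done on 2 H2O2 and 2 Control samples of HCT116. Tools named, without settings, are STAR, HTSeq, DESeq, Trim Galore, FastQC and CASAVA 1.8, with hg19 as the build, per the submitters' processing notes. The deposited table holds, per the file headers, a signal (the authors' group means of counts divided by size factors), the ratio of the means, its log2 value, and the authors' p-value and adjusted p-value. Genes with a mean over both groups below 5.46 are not analysed here.

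Each group mean was solved for 2 whole counts (tolerance 1e-09), which gave a single solution per group for each of the 16376 genes. Medians of ratios of the recovered counts equalled the size factors. Every pair of libraries differed by more than sampling noise. As a mean chi-square of counts per gene, the H2O2 pair stood at 2.32 and the Control pair at 6.82. Against the deeper and shallower H2O2 libraries, the shallower Control library stood at 6.47 and 5.71, and the deeper one at 12.4 and 11.1. By this measure the shallower Control library was nearer to the H2O2 libraries than to the deeper Control library.

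Calls are from the authors' test (threshold 0.05 on the adjusted p) unless limma is named. limma 3.58.1 (R 4.3.3) was run over all genes on log2(normalized count + 1), with a trend of the variance on the mean. The added 1 understates changes of low genes. The recovery of counts and limma were each tested on simulated data. Adjusted p-values are Benjamini-Hochberg over all genes. The members, the 7 pathway lists, the 4 marker lists and the tests were chosen with earlier results of these data known. The genes named are the 10 members, list genes past the threshold or the 3 of smallest adjusted p, and the 5 nearest to SNAI1. List genes count as measured at a mean of at least 10. A few list genes are not reported here, and counts, sums and medians of their lists leave them out. Exon lengths, overlaps and shared 75-base words were taken from GENCODE release 29, and 85.1% of genes matched by symbol or synonym. The length correction was added after the data were seen.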

Additional observations from a re-analysis of the deposited data

How the results depend on the processing

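No paired analysis was possible because the table ties no recovered library to a replicate number, so which libraries would form a pair is not known and no fit with a replicate block was run. SNAI1, ELF3 and CLDN4 were called under pseudocounts of 0.5 and 8, with genes of mean at least 50, with voom weights, and with upper quartile or total count scaling, which moved the median of all genes by 0.021 and -0.016. At an adjusted p under 0.01 or limma in place of the authors' test, 1178 called genes became 642 and 671. With a library left out, limma called between 284 and 3641 genes (671 with all 4, and 659 after the length correction) and between 1 and 7 of the 10 (3 with all 4). In these fits the spread comes from the group that keeps 2 libraries, and the lone library is assumed to vary like them. Members other than CDH1, OCLN and TJP1 kept their sign in every fit. The sign turned for CDH1 without the shallower H2O2 library (0.015; -0.098 to 0.015 over the 4 fits) and after the length correction (0.0087), for OCLN without the shallower Control library (-0.26; -0.26 to 0.71 over the 4 fits), and for TJP1 after the length correction (0.018). None of these 3 genes was called with all 4 libraries, and the cause was not tested. OCLN had 11 to 24 reads per library, the lowest depth of the 10 genes.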
